A study of Mus musculus with 12 samples.

Results

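The nuclear genes for the subunits of the 5 complexes of oxidative phosphorylation were followed in mouse cardiac fibroblasts that carried the transcription factors *Sox17* and *Erg* and in control fibroblasts. The members were the protein-coding genes of the count table whose symbols began with Ndufa, Ndufb, Ndufc, Ndufs, Ndufv, Uqcr, Cox4, Cox5, Cox6, Cox7, Cox8 or Atp5, or were *Sdha*, *Sdhb*, *Sdhc* or *Sdhd*, with at least 10 counts summed over the 12 libraries. The rule used no comparison between groups, and it returned 92 genes of the 35727 in the table. Of 106 matching names, 12 processed pseudogenes and 2 protein-coding genes at 0 counts, *Cox8c* and *Cox7b2*, were left out. All 92 members were among the 15506 genes that passed the filter on low counts. They fell into 36 subunits of complex I, 4 of complex II, 8 of complex III, 18 of complex IV (with *Ndufa4* and *Ndufa4l2*) and 18 of complex V. The other 8 members, the Ndufaf genes, are assembly factors of complex I and not subunits. *Atp5o* stood under 2 gene identifiers, one of which held 22 counts in all. That one shared 94% of its stretches of 31 bases with other genes, and the most with *Donson*.

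Bulk RNA sequencing covered 6 groups of 2 libraries: control and *Sox17*-*Erg* cells at Day 3, Day 7 and 4 weeks. The control columns are named for the pMX retroviral vector, and the labels call these cells fibroblasts and the *Sox17*-*Erg* cells iEC, induced endothelial cells. All groups came from hearts and were grown in EGM2, an endothelial growth medium. The fibroblasts came from pooled hearts of neonatal mice aged Day 0 to Day 3, with PECAM1-positive cells depleted and THY1-positive cells, which the method takes as fibroblasts, then kept on a magnetic column, from *C57BL/6J* mice or mice carrying *Tcf21*-CreERT2 and *Rosa26*-tdTomato. The labels do not say which of these each library came from, and nothing says that the libraries were separate cultures, so the p-values measure only the spread between these libraries.

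Oxidative phosphorylation passes electrons from NADH through complex I, or from succinate through complex II, to ubiquinone, complex III and complex IV, where oxygen is reduced. Complexes I, III and IV pump protons across the inner mitochondrial membrane, and complex V, the ATP synthase, uses that gradient to make ATP. Most subunits are encoded in the nucleus and imported, and a few are encoded by mitochondrial DNA, so both genomes have to supply each complex other than complex II. Several complex IV subunits have paired isoforms, one used in most tissues and another used mainly in heart and skeletal muscle, in testis or under low oxygen. Cardiac muscle is rich in these complexes, while endothelial cells are known to rely strongly on glycolysis.

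The promoters printed here were picked because they belong to members whose levels differed or whose letters match a known motif, ETS among them since *Erg* is an ETS-family factor. Each is the stretch of 250 bases before the RefSeq start of the gene (GRCm38.p6), 5′ to 3′ on the gene's strand, with capitals at motif matches. *Cox8b*, the muscle isoform whose level was lower with *Sox17*-*Erg*, lies on the minus strand and its promoter is chr7:140900447-140900696. *Ndufaf4*, the assembly factor that was higher at Day 3, lies on the plus strand, with its promoter at chr4:24897833-24898082. *Ndufs8*, a core subunit of complex I, lies on the minus strand, and the promoter at chr19:3912775-3913024 was chosen for its ETS match. *Ndufa9*, an accessory subunit of complex I that was lower at 4 weeks, lies on the minus strand and is shown as a promoter with none of the motifs, at chr6:126849145-126849394. None of these windows overlapped an annotated exon.
Cox8b: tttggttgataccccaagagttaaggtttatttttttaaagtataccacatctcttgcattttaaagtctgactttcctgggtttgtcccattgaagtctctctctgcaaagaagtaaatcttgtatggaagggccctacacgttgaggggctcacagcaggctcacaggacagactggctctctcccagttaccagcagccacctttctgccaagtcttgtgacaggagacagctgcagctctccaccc
Ndufaf4: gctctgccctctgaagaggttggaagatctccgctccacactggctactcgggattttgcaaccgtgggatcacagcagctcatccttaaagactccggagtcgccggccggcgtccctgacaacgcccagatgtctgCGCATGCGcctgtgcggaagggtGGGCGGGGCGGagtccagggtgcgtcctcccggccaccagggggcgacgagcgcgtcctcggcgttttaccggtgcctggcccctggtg
Ndufs8: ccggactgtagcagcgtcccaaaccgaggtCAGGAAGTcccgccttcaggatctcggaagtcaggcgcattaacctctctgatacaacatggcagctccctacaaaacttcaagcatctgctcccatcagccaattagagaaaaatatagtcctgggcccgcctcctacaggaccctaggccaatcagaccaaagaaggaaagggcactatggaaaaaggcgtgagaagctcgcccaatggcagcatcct
Ndufa9: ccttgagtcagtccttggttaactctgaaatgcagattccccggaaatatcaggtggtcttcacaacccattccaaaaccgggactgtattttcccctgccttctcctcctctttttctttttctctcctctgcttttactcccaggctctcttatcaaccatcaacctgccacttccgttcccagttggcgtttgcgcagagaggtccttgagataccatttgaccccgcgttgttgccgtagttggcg

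The motifs were searched on both strands in the 78 windows that RefSeq held for 73 of the 91 member symbols, beside all 32851 windows of the same length. The ETS letters CNGGAAGT were in 10.3% of the member windows and 7.58% of all windows. The letters CGCATGCG, which match the binding site of the nuclear respiratory factor NRF1, a regulator of many respiratory genes, were in 10.3% of the member windows and 1.55% of all. The YY1 letters AAGATGGCG were in 1.28% and 0.606%, and the GC box GGGCGG was in 35.9% and 32.7%. The NRF1 windows belonged to *Atp5g2*, *Atp5j*, *Atp5k*, *Atp5l*, *Cox6a1*, *Ndufa11*, *Ndufa8* and *Ndufaf4*. The *Cox8b* promoter held 1 CpG and the *Ndufaf4* promoter 23, and the median was 14.5 in member windows and 6 in all windows. A GC box can overlap another GC box, as in *Ndufaf4*. These matches describe letters only and were not tested as binding sites.

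Libraries held 19011635 to 41240449 counts assigned to genes, and the members took 0.409 to 0.634% of them. *Sox17* stood at 0 to 0.416 CPM (counts scaled to the size of the library) in the 6 control libraries, with a median of 0.0766, and at 432 to 1036 CPM in the 6 *Sox17*-*Erg* libraries, with a median of 852. *Erg* stood at 0.0728 to 2.27 CPM (median 0.131) and at 17.1 to 65.2 CPM (median 26.8) respectively, and the counts cannot separate viral from cellular transcripts. The groups did not overlap for either factor. One library, *Sox17*-*Erg* at 4 weeks replicate 1, stood apart for the members: it was the lowest of the 12 libraries for 62 of 92 members, and each other library was the lowest for 1 to 7. The count of lower members and the median over all 92 members at 4 weeks are therefore also given without it. In bulk RNA, fewer cells of a type and less RNA per cell cannot be told apart.

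Summed over all members, the level stayed close between control and *Sox17*-*Erg* cells at Day 3 and Day 7 and was lower with *Sox17*-*Erg* at 4 weeks. The sum was 5882 and 6235 CPM in the control libraries at Day 3 (replicates 1 and 2) and 6104 and 6358 CPM in the *Sox17*-*Erg* libraries. At Day 7 it was 5553 and 5306 CPM in control and 5616 and 4877 CPM with *Sox17*-*Erg*, and at 4 weeks 5533 and 5350 CPM in control and 4192 and 4721 CPM with *Sox17*-*Erg*. The groups overlapped at Day 3 and Day 7 and not at 4 weeks.

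**Figure D1:**
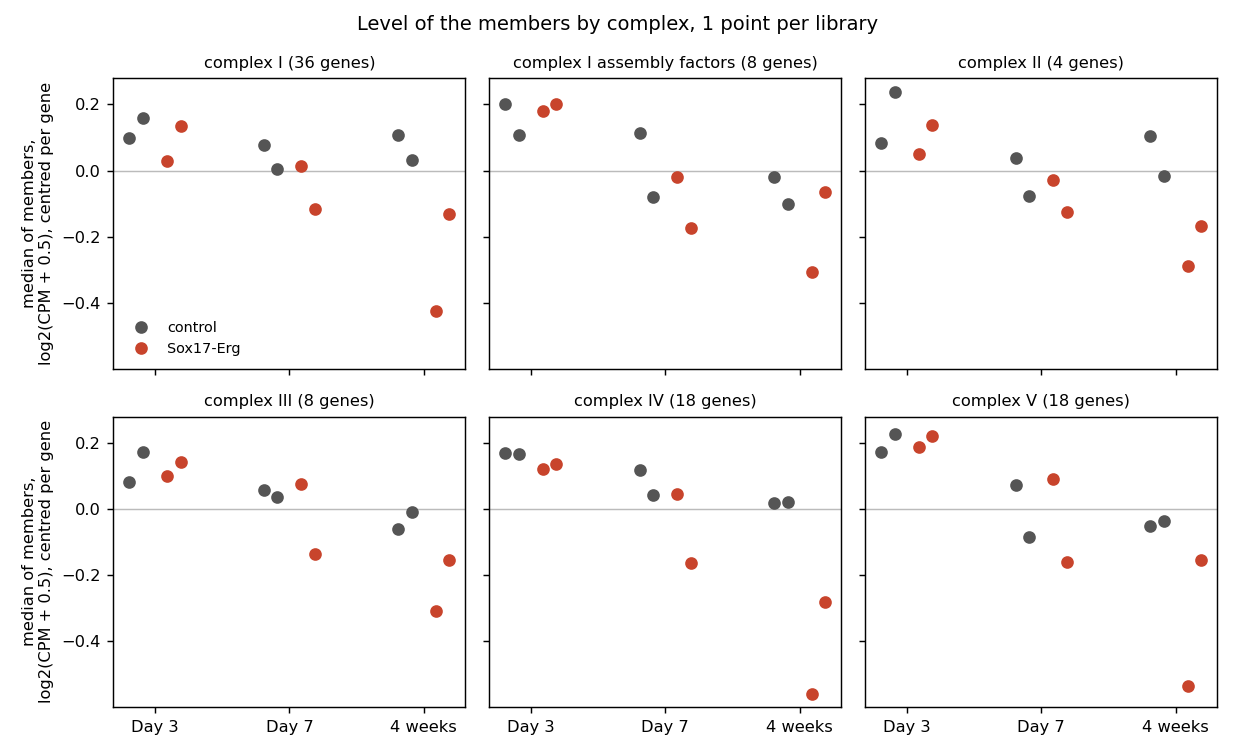
Median level of the members of each complex in each of the 12 libraries, as log2(CPM + 0.5) centred on each gene's mean over all libraries, for control (grey) and Sox17-Erg (red) at Day 3, Day 7 and 4 weeks. Both Sox17-Erg points lie below both control points at 4 weeks in complexes I to V but not in the assembly factors, and the lower point there is replicate 1.

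At Day 3, 1 member was higher and 0 were lower with *Sox17*-*Erg* at an adjusted p under 0.05 (edgeR quasi-likelihood test, Benjamini-Hochberg adjustment over all genes tested), where 7.19% of all genes tested were higher and 5.13% lower. At an unadjusted p under 0.05, 2 members were lower and 1 higher, against 13.3% and 16.8% of all genes, and DESeq2 called 1 member in each direction. The median log2 fold change was -0.04 over the members and 0.01 over all genes, and 56 of 92 members had a negative value. Both *Sox17*-*Erg* libraries lay below both control libraries for 21 members and above them for 20, against 29.9% and 34.1% of all genes tested.

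At Day 7, 2 members were lower and 0 higher, against 7.93% lower and 9.48% higher among all genes. At an unadjusted p under 0.05, 12 members were lower (13%, against 15.4% of all genes) and 2 higher (2.17%, against 16.4%), and DESeq2 called 2 lower and 0 higher. The median over members was -0.07, with 63 of 92 negative. It was -0.17 with 78 negative without *Sox17*-*Erg* replicate 1 of that day and -0.03 with 54 negative without replicate 2. The *Sox17*-*Erg* libraries lay below the controls for 29 members and above them for 5, against 28.8% and 29% of all genes.

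At 4 weeks, 16 of 92 members were lower and 1 was higher, against 11% lower and 11.9% higher among all genes tested. The median over the members was -0.34 and that over all genes -0.01, and 85 of 92 members had a negative value. A further 16 lower members had an adjusted p between 0.05 and 0.1. Both *Sox17*-*Erg* libraries lay below both controls for 66 of 92 members (71.7%) and above them for 3, against 32.4% and 30.3% of all genes. The median SE of a member's log2 fold change was 0.16.

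**Figure D2:**
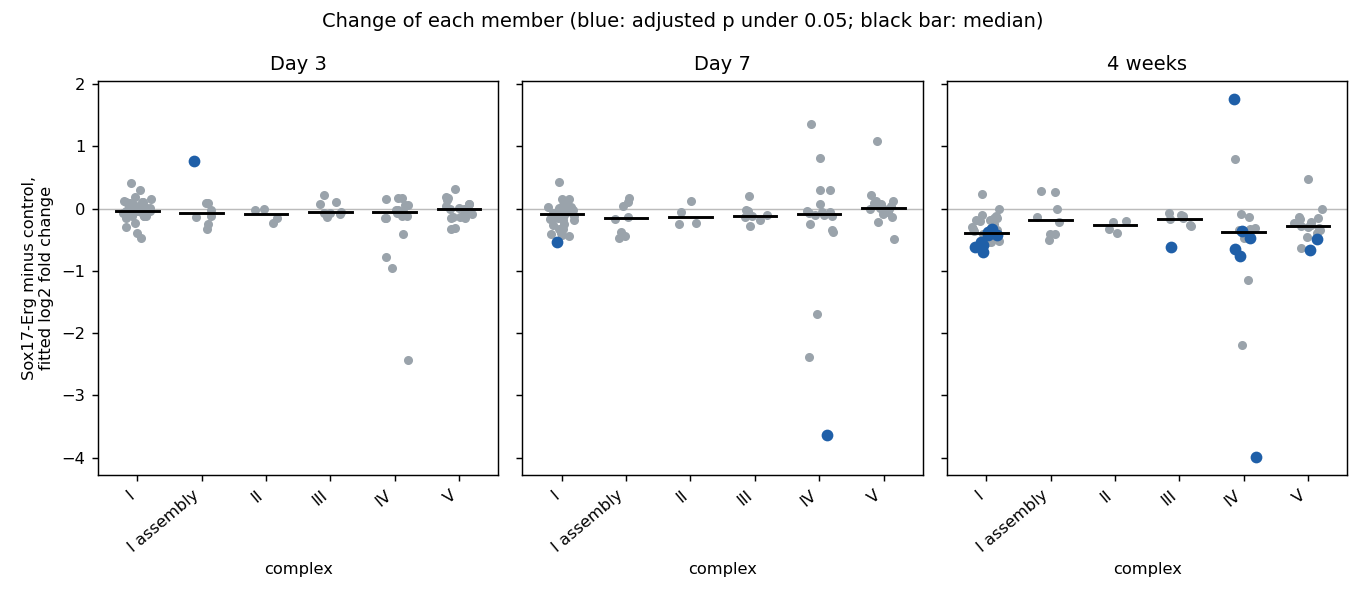
Fitted log2 fold change of each of the 92 members, Sox17-Erg minus control, at Day 3, Day 7 and 4 weeks, arranged by complex. Each point is a gene, blue points passed the adjusted p threshold of 0.05 and black bars are medians. Points lie around 0 at Day 3, and at 4 weeks 85 of 92 lie below 0.

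The number of calls at 4 weeks rested on single libraries, for the members and for all genes. Without *Sox17*-*Erg* replicate 1, the library that stood apart, 3 members were lower (*Cox8b*, *Ndufb10* and *Ndufc1*), which is 3.26% of members against 4.01% of all genes, while the median was -0.22 and 80 of 92 members were negative. Without *Sox17*-*Erg* replicate 2 there were 31 lower members (34.1% of the 91 tested in that fit, against 7.21% of all genes) and a median of -0.47. Without control replicate 1 there were 2, *Cox8b* and *Ndufc1* (2.17%, against 5.3%), and without control replicate 2 there were 10 (11% of 91, against 7.42%). Without Day 3 control replicate 1 or 2, which enter through the filter, the scaling and the shared estimate of the spread, 9 and 8 members were called (9.78% and 8.70%, against 8.82% and 8.16% of all genes). The share of members called thus stood above that of all genes in some of these fits and at or below it in others, while the median over the members stayed below that over all genes. All 16 genes stayed negative in each of these fits.

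Taken one at a time against the mean of the 4-week controls, both *Sox17*-*Erg* libraries were low. Replicate 1 had a median log2 difference of -0.43 over the members (-0.04 over all genes) and lay below both controls for 80 of 92. Replicate 2 had a median of -0.20 (0.00 over all genes) and lay below both for 68 of 92. The share of all genes below both controls was 43.2% in replicate 1 and 40% in replicate 2.

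The members had short annotated transcripts, with a median of 612.5 bases against 1477 for all genes tested, and this length moved with the difference in replicate 1. The length of a gene is the median over all its annotated transcripts, short ones included. *Sdha*, for example, stood at 521 bases, while its transcripts together held 4181 distinct stretches of 31 bases. The split at 700 bases, the length term and the levels per kilobase all rest on this length. In that library the 56 members under 700 bases had a median log2 difference of -0.53 and the 36 longer members -0.34. In replicate 2 the values were -0.18 and -0.21. Genes under 700 bases that are not members (2272) had a median fitted log2 fold change of -0.05 at 4 weeks, and 9.24% of them were lower. With a length term for each library, chosen after seeing the data, 10 members were lower, which is 10.9% of them against 10.3% of all genes in that fit, and the median was -0.27.

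**Figure D3:**
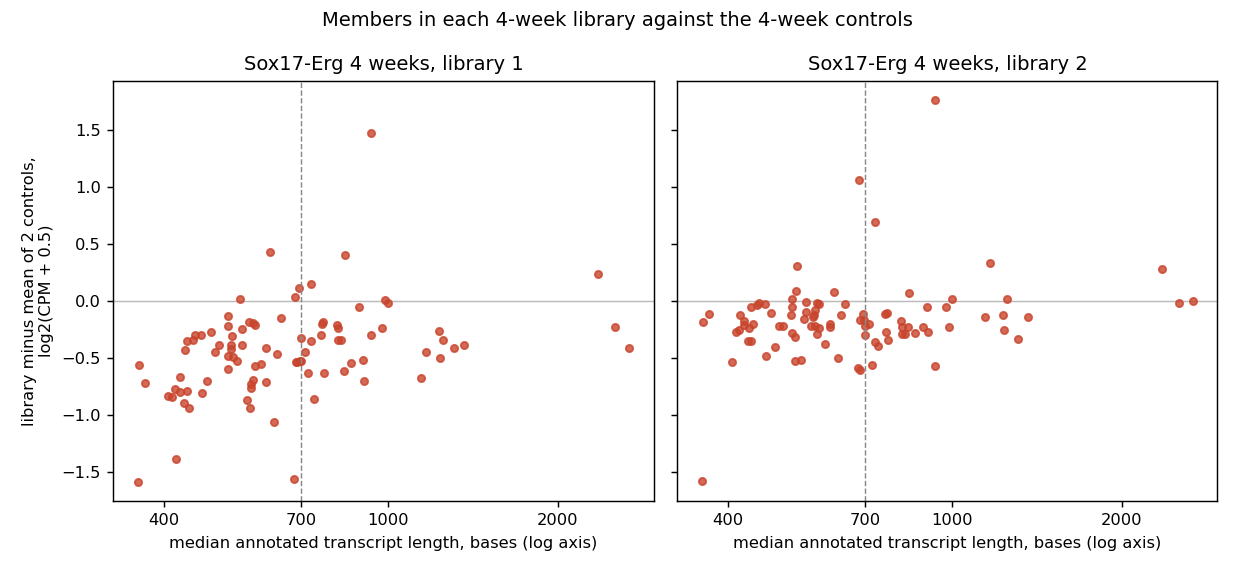
Difference of each member from the mean of the 4-week controls in each of the 4-week Sox17-Erg libraries, as log2(CPM + 0.5), against median annotated transcript length in bases on a log axis, with 1 point per gene. In library 1 the shorter members to the left of the 700-base line lie lower (median -0.53 against -0.34), and in library 2 they do not (-0.18 against -0.21).

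Complex I takes electrons from NADH and has a matrix arm, which holds the flavin and iron-sulfur centres, and a membrane arm. At 4 weeks 8 of its 36 members were lower, beside 11% of all genes tested. Of the 36, 34 had a negative value, and the median log2 fold change was -0.39. *Ndufc1*, *Ndufs7*, *Ndufv3*, *Ndufb10*, *Ndufs4*, *Ndufa8*, *Ndufa9* and *Ndufs1* were the 8, and most of these calls rested on single libraries.

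*Ndufv3*, a small accessory subunit at the NADH-binding end of the matrix arm (chr17:31520115-31531331, plus strand), was lower by a similar amount at each time point. It stood at 45.8 and 51.5 CPM in the control libraries and 31.3 and 38.8 CPM in the *Sox17*-*Erg* libraries at Day 3, at 50.001 and 57.3 against 35.7 and 38.5 CPM at Day 7, and at 54.3 and 47.1 against 34.7 and 32.9 CPM at 4 weeks. All 6 *Sox17*-*Erg* libraries lay below all 6 controls. The log2 fold change was -0.47 ± 0.14 (SE) at Day 3 (adjusted p = 0.0551), -0.53 ± 0.14 at Day 7 (adjusted p = 0.0283) and -0.59 ± 0.14 at 4 weeks (adjusted p = 0.0145) by edgeR's quasi-likelihood test. In the mean of the time points it was -0.53 ± 0.08 (adjusted p = 0.00079), and this call held in each alternative that was run, over a range of -0.59 to -0.49. The single time points did not hold: the Day 7 call was lost without control replicate 2 (edgeR adjusted p = 0.153) or *Sox17*-*Erg* replicate 1 (0.182), and the 4-week call without control replicate 1 (0.102) or either *Sox17*-*Erg* library (0.0603 and 0.0625). *Ndufa1*, a membrane-arm subunit, and *Atp5s*, known as factor B of the ATP synthase, were the other members with all 6 libraries below all 6 controls, a pattern seen in 4.92% of all genes tested, and no member had the opposite pattern.

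*Ndufc1*, an accessory subunit of the membrane arm (chr3:51404677-51408988, minus strand), parted from control at 4 weeks. Its level was 27.1 and 25.02 CPM in control and 23.7 and 24.4 CPM with *Sox17*-*Erg* at Day 3, then 23.0 and 22.6 against 20.3 and 20.0 CPM at Day 7, and 20.7 and 23.3 against 12.1 and 14.96 CPM at 4 weeks. The groups did not overlap at any time point, and the gap was widest at 4 weeks, with a log2 fold change of -0.70 ± 0.13 (edgeR adjusted p = 0.00434). *Ndufc1* and *Cox8b* were the members whose 4-week call stood whichever single library was left out.

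*Ndufb10*, a membrane-arm subunit (chr17:24722060-24724478, minus strand), rose from Day 3 to 4 weeks in control cells (0.52 on the log2 scale), while its change in *Sox17*-*Erg* cells was -0.04 (edgeR adjusted p = 0.802). It was not among the genes the naming rule gave and is named after its values were seen. Its level was 37.9 and 40.2 CPM in control and 40.5 and 39.3 CPM with *Sox17*-*Erg* at Day 3, and 43.6 and 48.7 against 38.7 and 35.1 CPM at Day 7. At 4 weeks it was 59.8 and 52.4 CPM in control and 38.7 and 38.9 CPM with *Sox17*-*Erg*. The groups overlapped at Day 3 and were apart afterwards, and the log2 fold change at 4 weeks was -0.53 ± 0.11 (edgeR adjusted p = 0.00762).

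*Ndufs7*, a core iron-sulfur subunit next to the ubiquinone site (chr10:80249121-80256794, plus strand), also rose with time in control cells. It stood at 21.9 and 24.2 CPM in control and 24.1 and 25.4 CPM with *Sox17*-*Erg* at Day 3, at 29.2 and 28.3 against 28.6 and 28.6 CPM at Day 7, and at 36.1 and 34.4 against 19.2 and 26.6 CPM at 4 weeks. The 4-week groups did not overlap and the lower *Sox17*-*Erg* library was replicate 1. The log2 fold change was -0.62 ± 0.15 (edgeR adjusted p = 0.0146), and the call was lost without control replicate 1 (0.0774) or *Sox17*-*Erg* replicate 1 (0.0771).

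The other lower complex I members at 4 weeks were *Ndufs4* (log2 fold change -0.42), *Ndufa8* (-0.42), *Ndufa9* (-0.38) and *Ndufs1* (-0.32), the last of which carries iron-sulfur centres.

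The 8 assembly factors help build complex I and leave it afterwards. At 4 weeks 0 were called by edgeR or DESeq2 and 0 were at an unadjusted p under 0.05, with a median log2 fold change of -0.18. *Ndufaf4* (chr4:24898083-24905001, plus strand), whose promoter is printed above, was the member higher at Day 3. It stood at 7.06 and 6.89 CPM in control and 12.1 and 11.6 CPM with *Sox17*-*Erg* at Day 3, at 8.45 and 7.23 against 10.1 and 7.51 CPM at Day 7, and at 7.39 and 9.76 against 10.1 and 10.4 CPM at 4 weeks. The groups were far apart at Day 3 and overlapped at Day 7. The Day 3 difference was 1.70-fold (log2 0.77 ± 0.20, edgeR adjusted p = 0.036), and it was lost when any of 7 single libraries was left out, 4 of them from Day 3 (adjusted p 0.0513 to 0.23). In the mean of the time points *Ndufaf4* was higher by 0.40 ± 0.11 (edgeR adjusted p = 0.0183), and *Ndufaf1*, another assembly factor, was lower by -0.34 (adjusted p = 0.0388). These calls in the mean were lost without any of 3 single libraries for *Ndufaf4* (edgeR adjusted p 0.0503 to 0.0623) and any of 8 for *Ndufaf1* (0.0528 to 0.112).

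Complex II, succinate dehydrogenase, belongs to both the respiratory chain and the TCA cycle and is built from nuclear subunits alone. At 4 weeks its 4 members all had a negative value with a median of -0.27, and 0 were called by edgeR or DESeq2, with 1 at an unadjusted p under 0.05. *Sdha*, the flavoprotein and the complex II member with the highest level per length (299 CPM per kilobase), stood at 190 and 165 CPM in control and 161 and 146 CPM with *Sox17*-*Erg*. Its log2 fold change was -0.21 (edgeR adjusted p = 0.386). *Sdhb*, the iron-sulfur subunit, differed by -0.39 (0.172), or by -0.71 and called without *Sox17*-*Erg* replicate 2 (edgeR adjusted p = 0.04), and the membrane anchors *Sdhc* and *Sdhd* by -0.33 (0.081) and -0.20 (0.223).

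Complex III hands electrons from ubiquinol to cytochrome c. All 8 members had a negative value at 4 weeks, with a median of -0.17, and 1 was lower, near the 11% of all genes tested. *Uqcr10*, a small subunit of the complex (chr11:4701973-4704342, minus strand), was that member. It stood at 40.5 and 42.3 CPM in control and 38.5 and 39.4 CPM with *Sox17*-*Erg* at Day 3, at 43.7 and 38.3 against 41.2 and 34.1 CPM at Day 7, and at 44.3 and 38.0 against 21.8 and 32.0 CPM at 4 weeks. The 4-week difference was -0.61 ± 0.18 (edgeR adjusted p = 0.0384). It was -0.37 without *Sox17*-*Erg* replicate 1, and the call was lost without any of 7 single libraries (0.0541 to 0.203). *Uqcrc1*, a core subunit at 183 CPM per kilobase, differed by -0.12 at 4 weeks (adjusted p = 0.459).

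Complex IV, cytochrome c oxidase, gave the 2 members that differed most in opposite directions, both of them isoforms. At 4 weeks 5 of its 18 members were lower and 1 was higher, beside 11% and 11.9% of all genes tested, and the median was -0.37. The lower members were *Cox8b*, *Cox6c*, *Ndufa4*, *Cox6a1* and *Cox8a*, and the higher one was *Ndufa4l2*. Apart from that of *Cox8b*, these calls rested on single libraries, as given below.

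*Cox8b*, the isoform used in heart and skeletal muscle (chr7:140898945-140900446, minus strand, with the promoter printed above), was scarce in all libraries. It stood at 0.109 and 0.185 CPM in control and 0 and 0.0431 CPM with *Sox17*-*Erg* at Day 3. At Day 7 it was 1.11 and 1.65 CPM in control and 0.0551 and 0.176 CPM with *Sox17*-*Erg*, and at 4 weeks 1.25 and 1.18 CPM in control and 0.0708 and 0.0741 CPM with *Sox17*-*Erg*. The groups did not overlap at any time point, and *Cox8b* rose with time in control cells by 3.03 on the log2 scale. Control libraries together held 7 counts at Day 3, 70 at Day 7 and 79 at 4 weeks, where the *Sox17*-*Erg* libraries held 1, 6 and 4. The control level was 13.5 times higher at Day 7 (95% exact interval 5.91 to 38.1) and 16.9 times higher at 4 weeks (6.35 to 63.6), intervals that cover counting error only. The fitted log2 fold change was -3.63 ± 0.66 at Day 7 (edgeR adjusted p = 0.00637) and -3.99 ± 0.69 at 4 weeks (adjusted p = 0.00351). The Day 7 call was lost without *Sox17*-*Erg* replicate 1 (edgeR adjusted p = 0.0763). *Cox8a*, the isoform of most tissues, stood at 99.4 and 91.6 CPM in control and 72.6 and 76.3 CPM with *Sox17*-*Erg* at 4 weeks, a difference of -0.36 ± 0.11 (edgeR adjusted p = 0.0421). That call was lost without any of 10 single libraries and with no filter (edgeR adjusted p = 0.131). It was also lost with the time point fitted alone (0.0995), a replicate block over all libraries (0.0509), the length term (0.0842) and a GC term (0.0517).

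The other muscle isoforms were as scarce. *Cox6a2* ranged from 0 to 1.79 CPM and *Cox7a1* from 0 to 1.17 CPM over the 12 libraries, and both were at 0 in *Sox17*-*Erg* replicate 1 at 4 weeks. They differed by -2.18 ± 1.13 (edgeR adjusted p = 0.199) and -1.15 ± 1.04 (adjusted p = 0.476) at 4 weeks, and neither passed the test on the few counts at hand. Without *Sox17*-*Erg* replicate 2, which leaves the library at 0, both were called (edgeR adjusted p = 0.0295 and 0.0398). Their counterparts of most tissues were far more abundant: *Cox6a1* stood at 136 and 134 CPM in control and 91.6 and 103 CPM with *Sox17*-*Erg* (-0.47 ± 0.12, edgeR adjusted p = 0.0198), and *Cox7a2* at 52.1 and 52.9 against 32.1 and 48.7 CPM (-0.38 ± 0.20, adjusted p = 0.212). Without *Sox17*-*Erg* replicate 2, *Cox7a2* differed by -0.74 and was called (edgeR adjusted p = 0.0387), and the *Cox6a1* call was lost without any of 3 of the 4-week libraries (0.0731 to 0.137).

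The *Cox8b* difference came with lower levels of cardiomyocyte genes, and from Day 7 of some adipocyte genes, in the same cultures. Of the 13 cardiomyocyte markers tested, 10 were lower at 4 weeks, or 4 when *Sox17*-*Erg* 4-week replicate 1 was left out. The lower markers numbered 4 at Day 7 and 2 at Day 3, and all 13 values were negative at each time point. The summed level of all 14 listed markers, untested included, was 1563 and 909 CPM in control and 428 and 343 CPM with *Sox17*-*Erg* at Day 3. It was 910 and 668 against 375 and 480 CPM at Day 7, and 1106 and 1402 against 691 and 693 CPM at 4 weeks. The marker sums were thus apart at Day 3 too, when the summed member levels overlapped. *Ckm* was at 0 in 1 *Sox17*-*Erg* library at Day 7 and the others were detected in all libraries. *Myh6*, the adult cardiac myosin, stood at 82.5 and 135 CPM in control and 7.89 and 16.5 CPM with *Sox17*-*Erg*. The isolation kept THY1-positive cells, and transcripts of the cardiomyocyte markers were still found in each control library. Of the 5 adipocyte markers tested, 3 were lower at Day 7 (median log2 fold change -6.41) and 3 at 4 weeks (-5.80). At Day 3, 0 of them were called and 2 values were above 0, and in control cells 4 rose from Day 3 to 4 weeks. The part of cardiomyocytes or adipocytes in the lower level of *Cox8b* or of the other members was not tested.

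*Ndufa4* and *Ndufa4l2* are paralogs: *Ndufa4*, first assigned to complex I, is a subunit of complex IV, and *Ndufa4l2* is known as a gene induced under low oxygen. *Ndufa4* (chr6:11900292-11907497, minus strand) stood at 100.1 and 105 CPM in control and 98.0 and 101 CPM with *Sox17*-*Erg* at Day 3, at 110 and 89.5 against 87.8 and 70.2 CPM at Day 7, and at 98.1 and 102 against 56.7 and 71.0 CPM at 4 weeks. *Ndufa4l2* (chr10:127514967-127517154, plus strand) stood at 3.27 and 4.49 CPM in control and 1.32 and 4.44 CPM with *Sox17*-*Erg* at Day 3, at 3.80 and 3.70 against 5.16 and 8.08 CPM at Day 7, and at 3.43 and 2.77 against 9.45 and 11.6 CPM at 4 weeks. The groups were apart in opposite directions at 4 weeks for the 2 genes, while at Day 3 those of *Ndufa4l2* overlapped. *Ndufa4* was lower by -0.65 ± 0.15 (edgeR adjusted p = 0.0152) and *Ndufa4l2* was 3.39-fold higher (log2 1.76 ± 0.46, adjusted p = 0.0235). The *Ndufa4l2* call was lost without any one of the 4 libraries of that time point (edgeR adjusted p 0.0676 to 0.11). That of *Ndufa4* was lost without either control (0.0587 and 0.0674) or *Sox17*-*Erg* replicate 1 (0.118).

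*Cox6c*, a small subunit of complex IV (chr15:35925886-35938246, minus strand), fell short of control from Day 7. It stood at 92.5 and 102 CPM in control and 86.2 and 92.2 CPM with *Sox17*-*Erg* at Day 3, at 110 and 113 against 92.7 and 78.8 CPM at Day 7, and at 113 and 103 against 51.3 and 75.8 CPM at 4 weeks. The groups did not overlap at any time point, though at Day 3 they were apart by a narrow margin. The 4-week difference was -0.76 ± 0.17 (edgeR adjusted p = 0.0118), lost without control replicate 1 (0.0706) or *Sox17*-*Erg* replicate 1 (0.0546), and the mean over the time points was -0.42 ± 0.10 (0.00806).

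Of the remaining complex IV genes of the isoform families, those given here were not called at a single time point. *Cox4i1*, the main isoform of its subunit and the complex IV member with the highest level per length (291 CPM per kilobase), stood at 172 and 147 CPM in control and 119 and 138 CPM with *Sox17*-*Erg* at 4 weeks (log2 fold change -0.31, edgeR adjusted p = 0.106). *Cox4i2*, the isoform of lung and of low oxygen, ranged from 0.366 to 1.93 CPM and differed by 1.36 ± 0.47 at Day 7 (adjusted p = 0.0803) and 0.79 at 4 weeks (0.276). *Cox5a* and *Cox5b*, which encode different subunits, differed by -0.09 (edgeR adjusted p = 0.553) and -0.34 (0.079) at 4 weeks, *Cox6b1* by -0.37 (0.134) and *Cox7b* by -0.48 (0.318). *Cox6b2*, a testis isoform, ranged from 1.71 to 7.66 CPM. *Cox7a2l*, which helps join complexes III and IV into supercomplexes, differed by -0.13 ± 0.22 at 4 weeks (edgeR adjusted p = 0.716), a value that turned to 0.16 without control replicate 1, and it shares 16.6% of its 31-base words with pseudogenes.

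**Figure D4:**
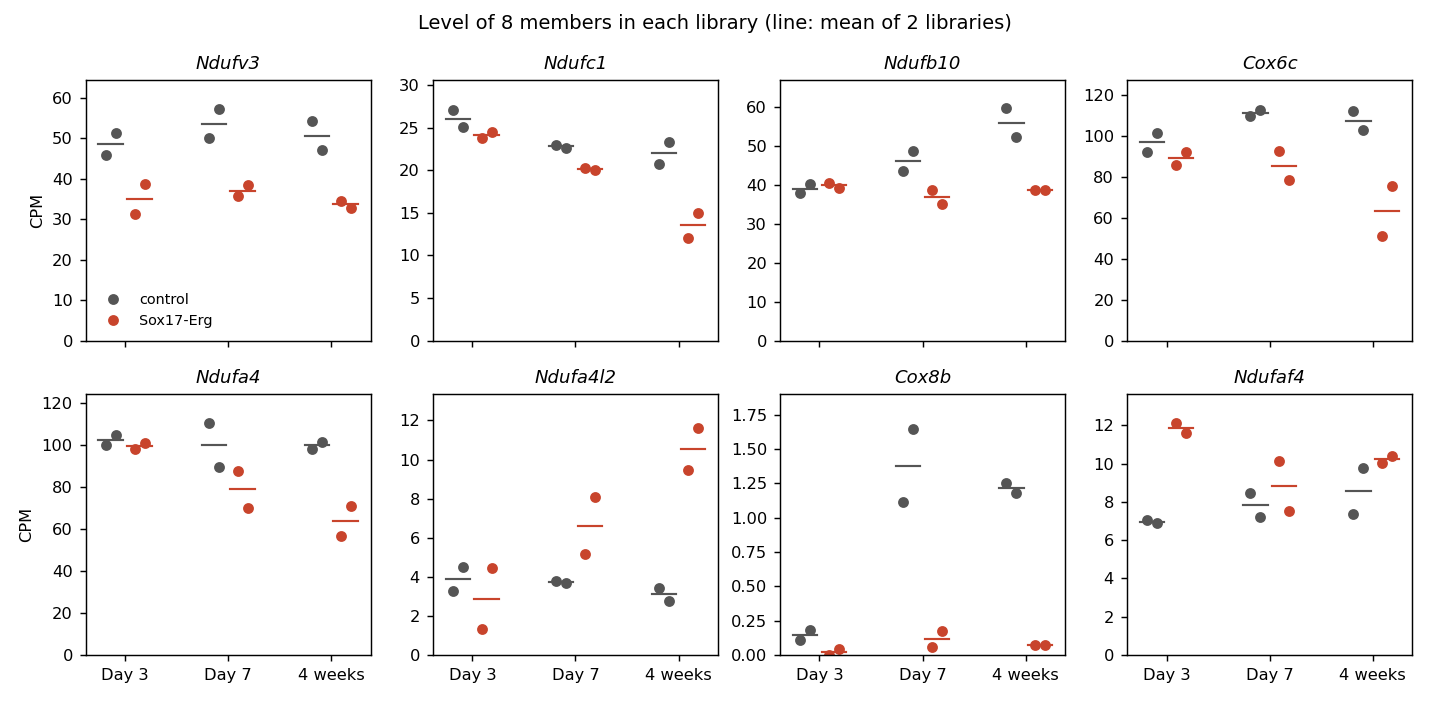
Level of 8 members in CPM in each library, control in grey and Sox17-Erg in red, with a line at the mean of the 2 libraries. Ndufv3 is lower with Sox17-Erg at each time point, Ndufc1, Ndufb10, Cox6c and Ndufa4 part from control mainly by 4 weeks, Cox8b stays at or below 0.176 CPM with Sox17-Erg, and Ndufa4l2 reaches 9.45 and 11.6 CPM at 4 weeks.

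Complex V, the ATP synthase, had 2 lower members at 4 weeks among 18, near the 11% lower among all genes tested. Of the 18, 17 were negative, and the median was -0.28. *Atp5s* (chr12:69724950-69744660, plus strand) stood at 4.04 and 4.21 CPM in control and 2.78 and 3.83 CPM with *Sox17*-*Erg* at Day 3, at 4.49 and 4.78 against 3.47 and 3.12 CPM at Day 7, and at 4.99 and 5.94 against 3.33 and 3.52 CPM at 4 weeks. It was lower by -0.67 ± 0.21 at 4 weeks (edgeR adjusted p = 0.0496) and by -0.49 ± 0.12 in the mean of the time points (0.0113). The 4-week call was lost under DESeq2 (adjusted p = 0.0637), and in edgeR with the DESeq2 size factors (adjusted p = 0.0509), no filter (0.154) and the length term (0.0653). It was also lost with the time point fitted alone (0.123) and without any of 10 single libraries. A replicate block crossed at 4 weeks, or set within each time point, lost it too. The mean call of *Atp5s* held in each of these that was run. *Atp5g3*, one of 3 genes for the same membrane ring subunit, was the other, at 124 and 113 CPM in control and 76.1 and 93.3 CPM with *Sox17*-*Erg* (-0.49 ± 0.15, edgeR adjusted p = 0.0405), a call lost without any of 7 single libraries (0.059 to 0.23). Its relatives *Atp5g1* and *Atp5g2* differed by -0.21 ± 0.24 (0.58) and 0.48 ± 0.95 (0.768), both turning sign when single libraries were left out. *Atp5g2* shares 37.5% of its 31-base words with other genes, among them pseudogenes with more counts than its own, so its level is uncertain. *Atp5b*, the catalytic beta subunit and the most abundant complex V member per length (869 CPM per kilobase), stood at 578 and 621 CPM in control and 527 and 557 CPM with *Sox17*-*Erg* at 4 weeks, a difference of -0.14 ± 0.14 (adjusted p = 0.508).

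Averaged over the 3 time points, which pools 6 libraries a side, 17 members were lower and 1 was higher, against 20.3% and 22% of all genes tested. The share of members called was thus near or below that of all genes in this contrast. The median over members was -0.14 and 80 of 92 were negative. Of the 17, 9 were also lower at 4 weeks, and the others included *Ndufa1* (-0.35, edgeR adjusted p = 0.0145) and *Ndufa3* (-0.45, 0.0148), both accessory subunits of complex I. Without control 4-week replicate 1 there were 10 lower members (10.9%, against 16.3% of all genes), and without *Sox17*-*Erg* 4-week replicate 2 there were 34 (37.4% of 91, against 18.9%).

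From Day 3 to 4 weeks 33 members fell and 1 rose in *Sox17*-*Erg* cells, against 15.6% and 15.1% of all genes. In control cells 7 fell and 3 rose, against 12.6% and 13.9% of all genes, so that fewer members than genes at large passed the test there. The median log2 change was -0.42 in *Sox17*-*Erg* and -0.11 in control cells, and 6 members fell in both. Without *Sox17*-*Erg* 4-week replicate 1 the *Sox17*-*Erg* median was -0.23 with 11 members falling (12%, against 5% of all genes), and without *Sox17*-*Erg* Day 3 replicate 1 or 2 the count was 9 (9.78%, against 5.5%) or 17 (18.5%, against 9%). With the length term the medians were -0.24 in *Sox17*-*Erg* and -0.03 in control cells, with 26 and 5 members falling (28.3% and 5.43%, against 13.8% and 12.3% of all genes). Among genes under 700 bases that are not members, 22.1% fell in *Sox17*-*Erg* cells with a median of -0.17, and 16.2% fell in control cells with a median of -0.10. The *Sox17*-*Erg* decreases were 10 in complex I, 10 in complex V, 8 in complex IV, 3 in complex III, and 1 each in complex II and the assembly factors. They were led by *Ndufb6* (-1.42), *Ndufaf5* (-0.99), *Cox5a* (-0.99), *Atp5o* (-0.87), *Ndufc1* (-0.83) and *Ndufs4* (-0.81), and *Atp5b* fell by 0.78 on the log2 scale. *Ndufa4l2* was the member that rose, by 1.86.

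*Cox5a*, a complex IV subunit of most tissues, fell alike in both arms, from 76.9 and 80.9 CPM at Day 3 to 40.8 and 41.9 CPM at 4 weeks in control, and from 76.2 and 77.7 CPM to 37.2 and 40.4 CPM with *Sox17*-*Erg*. The other members that fell in control were *Cox4i2* (-1.96), *Ndufaf5* (-1.01), *Atp5o* (-0.55), *Atp5mpl* (-0.43), *Cox4i1* (-0.42) and *Ndufa10* (-0.36), and *Cox8b* (3.03), *Ndufs7* (0.61) and *Ndufb10* (0.52) rose. The control counts, of falls and of rises, rested on single libraries, and the share of all genes that fell moved too. With any single library left out, the median change of the members in control cells stayed between -0.15 and -0.09. The rise of *Ndufa4l2* was lost without 4-week replicate 2.

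The difference between the *Sox17*-*Erg* effects at 4 weeks and at Day 3 was tested directly. By edgeR's quasi-likelihood test 0 members differed, against 2.22% of all genes with a higher and 0.987% with a lower effect at 4 weeks, and DESeq2 called 1 member. At an unadjusted p under 0.05, 18 members had a lower and 2 a higher effect at 4 weeks (19.6% and 2.17%, against 8.22% and 8.69% of all genes), and the median difference was -0.29 over the members and -0.03 over all genes. For 4 weeks against Day 7 and for Day 7 against Day 3, 0 members were called by either tool. At the unadjusted threshold 7 members had a lower and 0 a higher effect at 4 weeks than at Day 7, against 2.74% and 3.73% of all genes. For Day 7 against Day 3 the counts were 1 lower and 2 higher, against 3.91% and 4.99%.

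The 13 mitochondrially encoded subunits were not lower as a group at 4 weeks. Their summed level was 18812 and 22524 CPM in control and 34034 and 22886 CPM with *Sox17*-*Erg*, so the library with the lowest nuclear members had the highest mitochondrial sum of the 12. Their median log2 fold change was 0.50, 12 of the 13 values were above 0, and 2 passed the test as higher: *mt-Nd6*, a complex I subunit (0.94 ± 0.25, edgeR adjusted p = 0.0243), and *mt-Atp8*, a complex V subunit (1.12 ± 0.30, 0.027). *mt-Nd6* stood at 517 and 570 CPM in control and 1360 and 728 CPM with *Sox17*-*Erg*. The value below 0 was that of *mt-Atp6* (-0.81 ± 0.93), at 123 and 906 CPM in control and 222 and 366 CPM with *Sox17*-*Erg*. Its *Sox17*-*Erg* libraries at Day 3 held 1870 and 263 CPM. *mt-Co3* varied within groups too, at 124 and 402 CPM with *Sox17*-*Erg* at 4 weeks, so the levels of single genes of this list are uncertain. When *Sox17*-*Erg* replicate 1 was left out none of the 13 was called, the median was 0.27 with 10 of 13 above 0, and *mt-Nd6* differed by 0.41 (edgeR adjusted p = 0.155) and *mt-Atp8* by 0.90 (0.161). Without either control library 0 were called and without *Sox17*-*Erg* replicate 2, 5. The part of this difference in library content in the lower nuclear members was not tested.

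**Figure D5:**
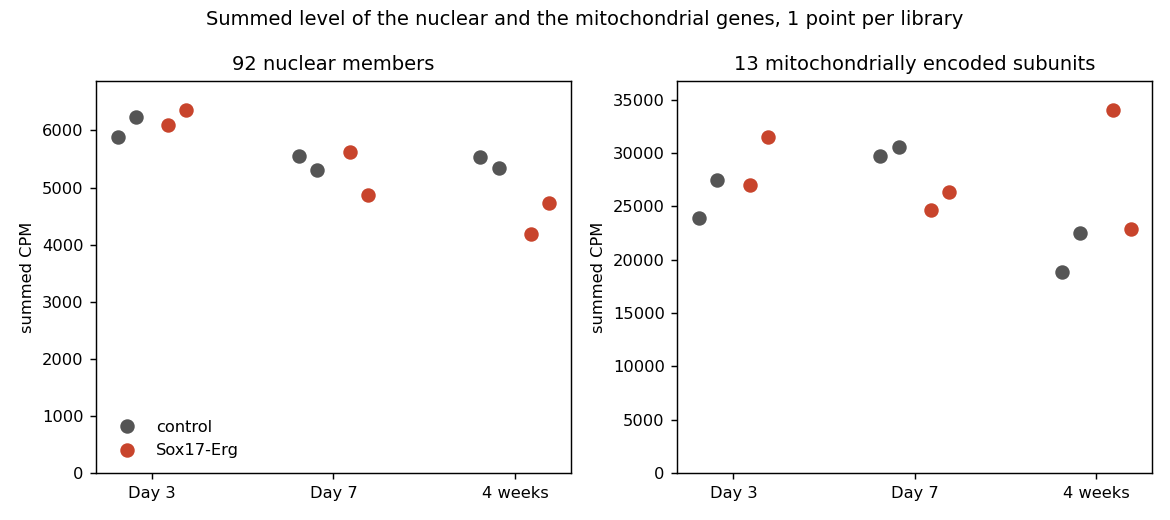
Summed CPM of the 92 nuclear members (left) and the 13 mitochondrially encoded subunits (right) in each library, control in grey and Sox17-Erg in red, both axes from 0. At 4 weeks the Sox17-Erg library with the lower nuclear sum (4192 CPM) has the higher mitochondrial sum (34034 CPM).

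Other genes of the pathway were read from lists chosen with earlier results of these data known, and their counts at 4 weeks stand beside 11% lower and 11.9% higher among all genes tested. Of the 16 TCA cycle enzymes, 3 were lower at 4 weeks. They included *Suclg2*, the GTP-forming subunit of succinyl-CoA ligase (-1.13 ± 0.12, edgeR adjusted p = 0.000304), and *Idh3g*, a subunit of NAD-dependent isocitrate dehydrogenase (-0.61, 0.00539). The median over that list was -0.21, with 1 of 16 values above 0. *Suclg2* and *Idh3g* were also lower at Day 7, by -0.84 and -0.50. Of the 17 carrier and import genes, 1 was higher and 2 were lower at 4 weeks, near the share of all genes in the lower direction, with a median of -0.08. *Tomm70a*, an import receptor, was higher (0.65, edgeR adjusted p = 0.0121), and *Vdac2*, a porin of the outer membrane (-0.55, 0.00969), and *Slc25a3*, the phosphate carrier (-0.45, 0.0312), were lower. At Day 3, 4 genes of that list were higher, beside 7.19% of all genes tested, with *Hspd1* and *Hspa9*, the mitochondrial chaperones, at 0.90 and 0.68. With *Sox17*-*Erg* 4-week replicate 1 left out, 2 of the TCA cycle enzymes and 0 of the carrier and import genes were called, and *Suclg2* (edgeR adjusted p = 0.00399) and *Idh3g* (0.0485) were still lower. The carrier and import calls were also 0 without 4-week control replicate 1.

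Of 34 assembly factors outside the rule, 4 were lower at 4 weeks, a share near that of all genes: *Uqcc1*, *Uqcc2* (-0.60), *Cox16* and *Coa5* (-0.51, edgeR adjusted p = 0.00941), and the median was -0.21. Of 21 regulators of mitochondrial biogenesis, 2 were lower at 4 weeks, again a share near that of all genes: *Ppargc1a*, the coactivator PGC-1 alpha (-1.40 ± 0.42, adjusted p = 0.0394), and *Ppara* (-1.49, 0.0462), while the median of that list was 0.08. *Ppargc1a* stood at 2.71 and 2.68 CPM in control and 0.814 and 1.22 CPM with *Sox17*-*Erg*. In the fit without *Sox17*-*Erg* 4-week replicate 1, 2 of these assembly factors and 0 regulators were called, *Ppargc1a* differed by -1.15 (edgeR adjusted p = 0.205), and the median of the assembly factors was -0.08. Without either 4-week control 1 assembly factor was called, and with any one of the 4-week libraries left out no regulator was. At Day 3, *Tfam*, which packages and transcribes mitochondrial DNA (0.61, edgeR adjusted p = 0.0221), and *Pprc1*, a coactivator related to PGC-1 alpha (0.64, 0.0347), were higher.

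Markers of several other cell types, though not of macrophages, moved with the arms at 4 weeks, in values that stand beside the member results. Fibroblast markers summed to 20226 and 16654 CPM in control and 12824 and 13445 CPM with *Sox17*-*Erg*, with 4 of 10 lower and 1 higher. Of 10 endothelial markers, 7 were higher and 1 lower, and *Pecam1* stood at 3.46 and 8.17 CPM in control and 117 and 94.6 CPM with *Sox17*-*Erg*. The summed endothelial level overlapped between the arms (989 and 1525 against 1350 and 1146 CPM), with *Eng*, which fibroblasts also express, as its largest part and the 1 marker that was lower. Smooth muscle and pericyte markers summed to 1666 and 3225 CPM in control and 5314 and 5244 CPM with *Sox17*-*Erg*, with 5 of 11 higher and 2 lower. Adipocyte markers, 8 listed, summed to 408 and 317 against 191 and 167 CPM, with 3 of the 5 tested lower. Proliferation genes summed to 88.0 and 109 against 136 and 275 CPM with 3 of 7 higher, and macrophage markers, 9 tested, to 49.6 and 400 against 63.4 and 310 CPM, with 0 called by edgeR. The macrophage sums overlapped. These calls rested on single libraries too. With each 4-week library left out in turn, 1 to 2 fibroblast and 0 to 3 adipocyte markers were lower, and 4 to 6 endothelial and 4 to 6 smooth muscle and pericyte markers were higher. The higher proliferation genes numbered 2 without *Sox17*-*Erg* replicate 1 and 0 without any one of the other 4-week libraries, endothelial calls were fewest without control replicate 1, and adipocyte calls were 0 without *Sox17*-*Erg* replicate 1. Of the macrophage markers 2 were higher without control replicate 2 and 1 was lower without *Sox17*-*Erg* replicate 2. The part of any of these in the levels of the members was not tested.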

How the data were processed

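Control and Sox17-Erg cells at Day 3, Day 7 and 4 weeks gave 12 libraries of poly(A)-selected, stranded RNA (Kapa mRNA kit). The deposited table holds estimated counts per gene, already whole numbers, which the authors made with Salmon after bcl2fastq 2.20.0 and a BBDuk step against high GC content, per the labels and the study's methods. The submitters' processing notes name the mm10 build, and the Salmon version and annotation are not given in the sources used here. Gene symbols, types, positions and lengths came from GENCODE M21 (35422 of 35727 identifiers matched). Library columns were matched to samples by their descriptions, and replicates are numbered as in the sample titles, where the columns use other numbers.

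Counts were tested with edgeR 4.0.16 (limma 3.58.1, R 4.3.3) as deposited, with TMM factors, filterByExpr (minimum count 10, minimum total 15) and a quasi-likelihood fit of the 6 group means, which left 6 residual degrees of freedom. p-values were adjusted by Benjamini-Hochberg over the 15506 genes tested, and calls were made at 0.05. CPM used the same library sizes and factors. The pseudocount of group levels was 0.5 CPM.

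Named members were up to 8 called in each direction per time point and in the mean, the isoform families, complex II, the member of each complex with the highest CPM per kilobase, and members whose effect differed between time points. Some genes that this rule gave are not reported here. The members, the lists and the naming rule were chosen with earlier results of these data known. Alternatives were DESeq2 1.42.0 and its size factors, no filter, a threshold of 0.01, each time point fitted alone, a replicate block, leaving out each library, and, added after seeing the data, length and GC terms and other blocks.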

Additional observations from a re-analysis of the deposited data

Results flagged for a closer look

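*Suclg2*, the GTP-forming subunit of succinyl-CoA ligase, was the 1 gene among the members and the pathway lists whose *Sox17*-*Erg* effect differed between 4 weeks and Day 3 in a direct test, by -1.30 ± 0.17 on the log2 scale (edgeR quasi-likelihood test, adjusted p = 0.00639). It stood at 29.0 and 30.7 CPM in control and 33.7 and 33.9 CPM with *Sox17*-*Erg* at Day 3, and at 36.3 and 31.8 against 15.8 and 15.5 CPM at 4 weeks. The difference was called in all 21 alternatives run for it, over a range of -1.35 to -1.21. Groups of 2 libraries are too small to test for a sample far from the others.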

How the results depend on the processing

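The median log2 fold change of the members stayed negative at each time point in every alternative, and at 4 weeks it ran from -0.47 to -0.22 (as reported, -0.34) when single libraries were left out. The counts of calls moved far more. With single libraries left out, lower members numbered 2 to 31 at 4 weeks, 0 to 4 at Day 7, 0 to 2 at Day 3, 10 to 34 in the mean of the time points, 9 to 39 for *Sox17*-*Erg* over time and 1 to 9 for control over time. The share of all genes called lower moved too in these fits, from 4.01% to 10.6% at 4 weeks, 1.84% to 7.99% at Day 7, 0.41% to 6.19% at Day 3, 15.5% to 20.7% in the mean, 5% to 15.1% for *Sox17*-*Erg* over time and 4.93% to 12.3% for control over time. Higher members numbered 0 to 1 at 4 weeks, at Day 3 and for *Sox17*-*Erg* over time, 0 to 2 in the mean and 0 to 4 for control over time, and members whose effect differed between 4 weeks and Day 3 numbered 0 to 3. At an adjusted p under 0.01, lower members were 3 at 4 weeks (3.26%, against 4.79% of all genes) and 1 at Day 7 (1.09%, against 2.64%). They were 5 in the mean (5.43%, against 12.5%), and over time 15 for *Sox17*-*Erg* (16.3%, against 6.42%) and 1 for control (1.09%, against 4.97%). Higher members at that threshold were 0 at 4 weeks, at Day 3, in the mean and for *Sox17*-*Erg* over time. With each time point fitted alone, 5 members were lower at 4 weeks (5.49%, against 9.74% of all genes) and 1 at Day 7 (1.1%, against 3.29%). The length term, added after seeing the data, left 10 lower at 4 weeks, and gave 1 lower at Day 3 and 2 higher in the mean. The GC term, also added, gave 2 higher in the mean and 1 member with a differing effect. DESeq2 gave 1 lower at Day 3, 2 higher in the mean and 1 with a differing effect, its size factors 1 lower at Day 3, and no filter 2 higher in the mean and 2 with a differing effect.

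The replicate block over all libraries gave 2 higher members in the mean and changed no other count by over 1.5 times. It kept 14 of the 16 lower members at 4 weeks. The labels share replicate numbers but state no shared batch. The deviations of same-numbered libraries correlated at 0.19, 0.30 and 0.17 between control and *Sox17*-*Erg* at Day 3, Day 7 and 4 weeks. Within and across the arms they correlated at 0.14 to 0.22 between Day 3 and Day 7, and at -0.14 to -0.01 between 4 weeks and either day. A block crossed at 4 weeks, added after seeing the data, gave 11 lower for control over time, 1 lower at Day 3 and 2 higher in the mean. A replicate block within each time point, also added, gave 30 lower members at 4 weeks (and 15.5% of all genes), 5 at Day 7, 1 at Day 3, 27 in the mean and 11 for control over time, 1 higher at Day 7, 2 higher in the mean and 2 with a differing effect. Of single-gene values, 5 turned sign at 4 weeks: *Atp5g1* (0.042) and *Atp5g2* (-0.15) without control replicate 2, *Atp5g2* (-0.26) without *Sox17*-*Erg* replicate 2, and *Cox6b2* (0.64) and *Cox7a2l* (0.16) without control replicate 1. Over the left-out libraries these ran from -0.46 to 0.042 for *Atp5g1*, -0.26 to 1.79 for *Atp5g2*, -0.94 to 0.64 for *Cox6b2* and -0.37 to 0.16 for *Cox7a2l*. Another 109 fell below the threshold, 5 rose past it and 751 kept direction and side. The cause of these changes was not tested, and the left-out fits also held fewer libraries. Depth limits the scarce isoforms *Cox6a2*, *Cox7a1* and *Cox8b*.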
